A study of Mus musculus with 10 samples.

Results

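The 38 genes described here encode the enzymes that carry glucose through glycolysis, the pyruvate dehydrogenase complex and the citric acid cycle, together with the glucose carriers Slc2a1 and Slc2a3. They were chosen by gene symbol, taking every probe set that the platform's annotation assigns to a listed gene and to no other gene. Of the 38 genes, 36 had such a probe set, with 52 probe sets in all of the 12488 on the array, and Gpi1 and Eno1 are not analysed here. RNA of whole brain from newborn mice (postnatal day 0) had been hybridised to 10 Affymetrix MG-U74Av2 arrays in 4 groups. XmO animals have 39 chromosomes with a single X of maternal origin (3 arrays, replicates 1, 2 and 7), and XX_Paf animals are 40,XX females (3 arrays, replicates 1, 2 and 3), both from the cross written C57BL/6J x C3H/Paf. XpO animals have 39 chromosomes with a single paternal X (2 arrays, replicates 15 and 18), and XX_InX animals are 40,XX females (2 arrays, replicates 1 and 19), both from the cross written In(X)/C3H x C57BL/6J. The labels say neither what Paf and In(X) carry, nor which parent stands first, nor whether an array holds 1 animal or a pool, so p-values measure the spread between these samples, which may be technical.

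Glycolysis splits glucose into pyruvate in the cytosol, with phosphofructokinase as its main controlled step and with lactate dehydrogenase recycling its cofactor when pyruvate is turned to lactate. The pyruvate dehydrogenase complex feeds acetyl groups into the mitochondrial citric acid cycle. The newborn brain draws on glucose, lactate and ketone bodies, and many steps have isoforms that differ between neurons, glia, muscle and blood. Not every listed gene is a cycle enzyme in the strict sense, since Aco1, Idh1 and Mdh1 encode the cytosolic forms of steps that also run in mitochondria.

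The loss of an X chromosome bears directly on 3 of the genes, because Pdha1, Pgk1 and Idh3g lie on the X. Their promoter windows are printed here, with those of Pfkp and Ldhb, autosomal members with a probe set higher on every array of the Paf cross than on any of the In(X) cross. The windows are RefSeq's (GRCm38.p6), each running from 250 bases before to 50 bases after a gene's start and written 5′ to 3′ on the gene's strand. Capitals mark ACGTG or GCGTG on either strand, the core that hypoxia-inducible factors can bind. Pdha1 lies at chrX:160138381-160138680 (minus strand), Pgk1 at chrX:106186850-106187149 (plus strand) and Idh3g at chrX:73786848-73787147 (minus strand). Pfkp lies at chr13:6648722-6649021 and Ldhb at chr6:142507908-142508207, both on the minus strand.
Pdha1: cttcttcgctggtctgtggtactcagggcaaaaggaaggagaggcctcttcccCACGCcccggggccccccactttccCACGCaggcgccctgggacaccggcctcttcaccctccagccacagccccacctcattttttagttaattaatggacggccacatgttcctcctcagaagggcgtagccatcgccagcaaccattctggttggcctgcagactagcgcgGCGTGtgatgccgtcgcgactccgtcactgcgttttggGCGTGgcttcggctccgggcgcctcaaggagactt
Pgk1: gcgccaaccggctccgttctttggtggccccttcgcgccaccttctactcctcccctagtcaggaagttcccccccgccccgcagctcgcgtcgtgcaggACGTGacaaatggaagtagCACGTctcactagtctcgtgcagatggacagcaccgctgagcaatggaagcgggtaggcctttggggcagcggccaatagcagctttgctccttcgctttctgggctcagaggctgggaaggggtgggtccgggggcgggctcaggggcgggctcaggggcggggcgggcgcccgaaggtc
Idh3g: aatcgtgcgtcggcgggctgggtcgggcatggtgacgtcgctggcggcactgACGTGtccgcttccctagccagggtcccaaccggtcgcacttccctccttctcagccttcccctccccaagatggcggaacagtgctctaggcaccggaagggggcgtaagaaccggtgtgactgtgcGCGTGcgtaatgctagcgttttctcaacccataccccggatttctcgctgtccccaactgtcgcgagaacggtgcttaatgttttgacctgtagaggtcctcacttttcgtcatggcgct
Pfkp: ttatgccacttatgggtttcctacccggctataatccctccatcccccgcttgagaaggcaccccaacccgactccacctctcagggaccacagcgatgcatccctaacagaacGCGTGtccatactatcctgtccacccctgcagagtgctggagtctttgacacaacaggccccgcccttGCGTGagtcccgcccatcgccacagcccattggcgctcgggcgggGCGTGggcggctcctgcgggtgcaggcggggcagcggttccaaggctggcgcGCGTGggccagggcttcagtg
Ldhb: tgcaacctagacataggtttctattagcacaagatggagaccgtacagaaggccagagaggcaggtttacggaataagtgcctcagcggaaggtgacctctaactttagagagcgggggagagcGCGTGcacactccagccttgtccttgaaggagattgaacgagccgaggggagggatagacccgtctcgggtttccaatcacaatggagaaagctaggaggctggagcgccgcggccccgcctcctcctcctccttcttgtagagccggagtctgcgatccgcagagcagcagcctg
The Pgk1 window held 2 matches to ACGTG and none to GCGTG, the Pdha1 and Pfkp windows held 4 matches each to GCGTG, Idh3g held 1 of each, and Ldhb held 1 match to GCGTG. One or the other core was present in 37 of the 52 windows of 36 listed genes (71.2%), against 43.8% of all 32851 windows. ACGTG alone was in 40.4% of the members' windows and 19.6% of all, and GCGTG in 53.8% and 32.4%. The GC box GGGCGG was in 57.7% of the members' windows and 35.7% of all, whereas TATAAA was in 3.85% and 13.6%. Several genes have more than 1 window, and a match is a description of the letters and not a binding site.

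Intensities are on the authors' linear scale, on which every array has a trimmed mean of 500.3, and a level is compared only within a probe set. Differences are in log2 units from a limma model fitted to all probe sets, and a probe set counts as called at a Benjamini-Hochberg adjusted p under 0.05. Of the members' 52 probe sets, 49 entered the fit. The other 3 are antisense control sets for Gapdh. After the filter on low values 41 probe sets of 32 genes were tested, among 8697 on the whole array. The 8 under the filter were both sets of Hk2, the hexokinase of muscle and fat, Pgam2, the muscle phosphoglycerate mutase, Aco1 and Idh3b, and 1 dim set each of Ldhb, Idh3a and Idh3g. Hk2 (94375_at) ranged from 15.7 to 123, Aco1 from 17.9 to 185, Idh3b from 15.7 to 107, and Pgam2 from 4 to 10.9. These values overlapped the brightest of 9 Y-linked probe sets on the same array (33.6 to 136.6), which have no template in these animals. Hk2 was at or below it on 6 arrays at its brighter set, Aco1 on 5, Idh3b on 8 and Pgam2 on 10. Neuronal markers were present on all arrays (Snap25 2462 to 3015), as labelled. The ratio of the 3′ to the 5′ control set was 0.701 to 0.817 for Gapdh and 1.02 to 1.16 for Actb.

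**Figure D1:**
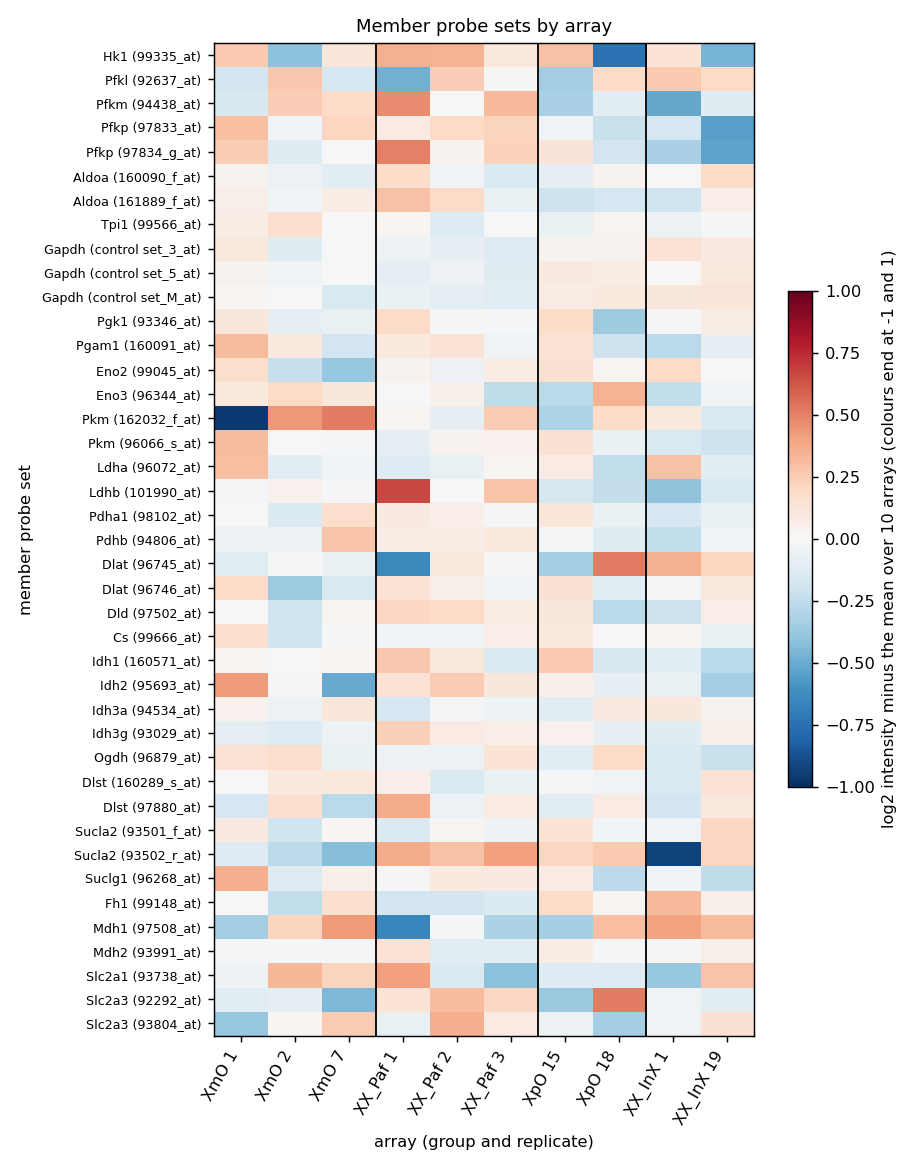
Each row is 1 of the 41 tested member probe sets and each column 1 array, grouped as XmO, XX_Paf, XpO and XX_InX, and the colour gives the log2 intensity minus that probe set's mean over the 10 arrays (red higher, blue lower). No value lay more than 1 from its mean, and the furthest was Pkm (162032_f_at) on XmO 1, 0.96 below. The reddest cells of Pfkm, Pfkp and Ldhb were among the 6 arrays at left, where other cells of these genes were pale or blue.

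The first comparison asked whether brains with a single X differed from XX brains over both crosses. No member did so past the threshold: 0 of 41 probe sets were called, as were 0.0115% of all those tested (1 probe set), and 0 of 41 had an unadjusted p under 0.05 in limma, against 2.6% of all. In no member did the XO and XX arrays separate in the same direction within both crosses, against 0.851% of all. The estimates ran from -0.21 to 0.19, with 21 higher and 20 lower in XO (4361 and 4336 of all probe sets). Their median was 0.0, as over all probe sets. The median size was 0.07, against 0.09 for all probe sets. The 95% interval lay within a 2-fold change for 41 of the 41 probe sets tested (91.8% of all probe sets) and within a 1.5-fold change for 40 of them (71.6% of all). The exception was Hk1, the main hexokinase of brain, whose interval ran from -0.59 to 0.25.

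**Figure D2:**
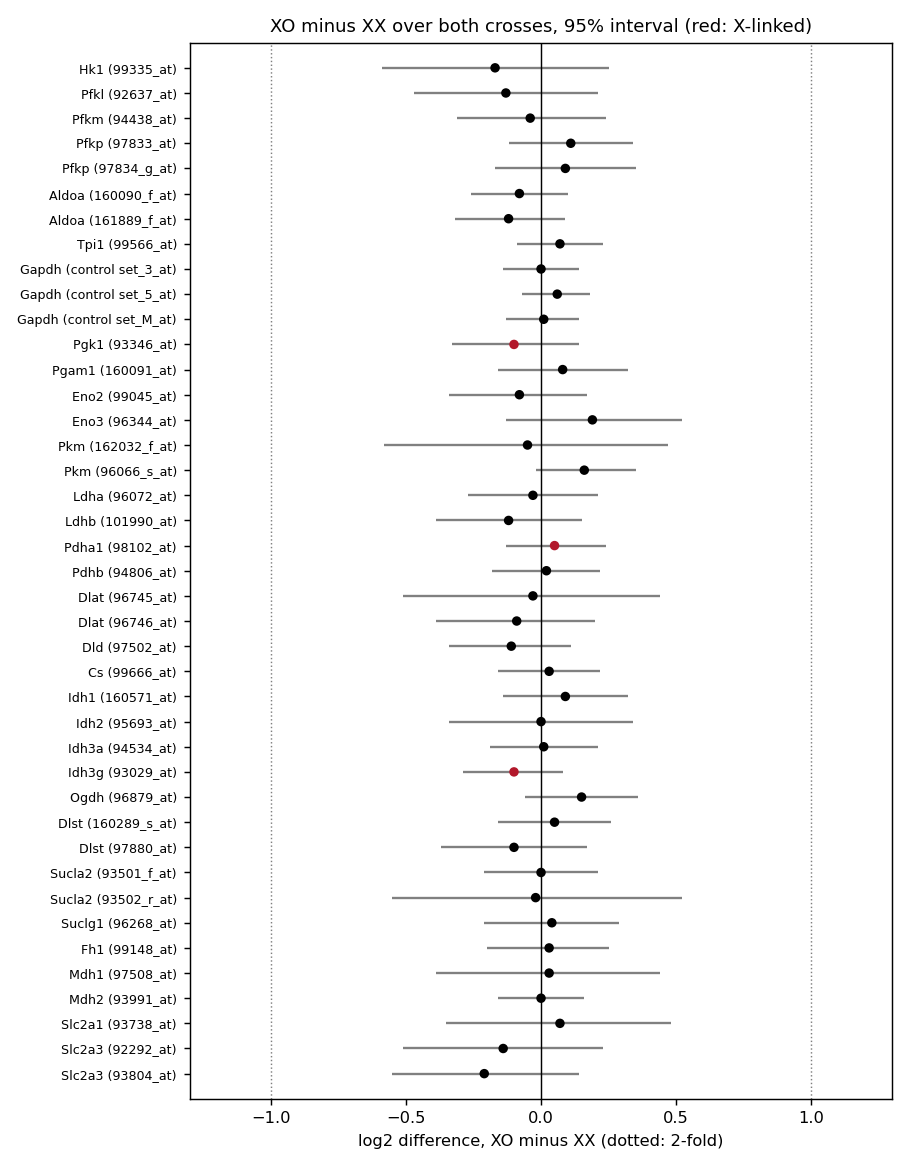
Points are the log2 difference between XO and XX, averaged over both crosses, for each of the 41 tested member probe sets, and bars are 95% intervals from limma; red marks the X-linked genes and dotted lines a 2-fold change. Estimates lie between -0.21 and 0.19, and every bar lies between the dotted lines.

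None of the X-linked members passed the test between XO and XX. Pdha1, the catalytic alpha subunit of pyruvate dehydrogenase, was at 3138, 2843 and 3544 in XmO and 3342, 3284 and 3112 in XX_Paf, and at 3416 and 2988 in XpO and 2796 and 2982 in XX_InX. The XmO and XX_Paf arrays overlapped, and both XpO arrays were above both XX_InX arrays, XpO 18 only narrowly. The difference between XO and XX was 0.05 (SE 0.08, 95% interval -0.13 to 0.24, limma adjusted p = 1.0).

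Pgk1, the phosphoglycerate kinase of somatic cells and the first ATP-making step of glycolysis, was at 2448, 2116 and 2139 in XmO and 2596, 2226 and 2230 in XX_Paf. It was at 2566 and 1761 in XpO and 2236 and 2378 in XX_InX. The groups overlapped in both crosses, and 1 array, XpO 18, was the lowest of the 10. The difference was -0.10 (SE 0.11, interval -0.33 to 0.14, limma adjusted p = 1.0), and without XpO 18 it was 0.04.

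Idh3g, the gamma subunit of the NAD-dependent isocitrate dehydrogenase of the cycle, is the third X-linked member. Its bright set was at 1295, 1260 and 1330 in XmO and 1628, 1460 and 1441 in XX_Paf, and at 1420 and 1301 in XpO and 1266 and 1437 in XX_InX. All XmO arrays were below all XX_Paf arrays, while XpO and XX_InX overlapped. XmO was lower than XX_Paf by an estimate of -0.22 (SE 0.11, limma adjusted p = 0.887), and XpO differed from XX_InX by 0.01 (SE 0.13). The difference between those effects was -0.23 (SE 0.17, limma adjusted p = 0.875), and over both crosses XO minus XX was -0.10 (interval -0.29 to 0.08). The catalytic partner Idh3a, which is autosomal, differed between XO and XX by 0.01 (SE 0.09).

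**Figure D3:**
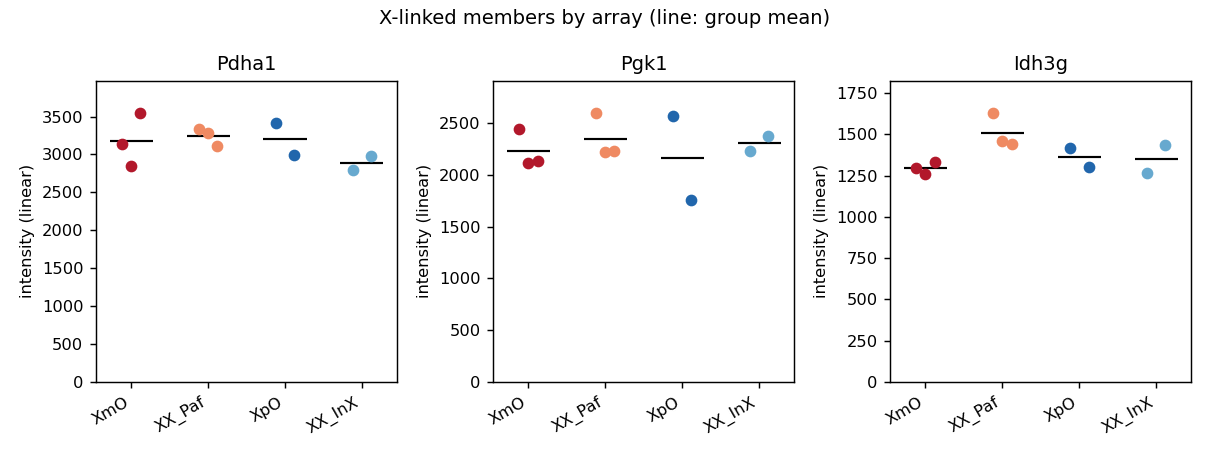
Each point is the linear intensity of 1 array and each line the mean of its group, for the X-linked genes Pdha1, Pgk1 and Idh3g (93029_at), with the axes starting at 0. The XmO points of Idh3g (1260 to 1330) lie below the XX_Paf points (1441 to 1628), and the other XO and XX points of Pgk1 and Idh3g overlap.

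Among the members, the smallest p for XO against XX was that of Pkm, the pyruvate kinase that ends glycolysis. Its brighter set (96066_s_at) was at 7111, 5689 and 5632 in XmO and 5362, 5843 and 5873 in XX_Paf, and at 6338 and 5456 in XpO and 5130 and 4958 in XX_InX. The XmO and XX_Paf arrays overlapped and the XpO arrays were above the XX_InX arrays. The difference was 0.16 (SE 0.09, limma adjusted p = 1.0). The other Pkm set (162032_f_at) had the opposite sign, -0.05 (SE 0.24). It also had the widest spread of the 41 tested member sets, with XmO 1 at 1051 against 1645 to 2906 on the other arrays.

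Within the Paf cross, 0 of 41 members were called between XmO and XX_Paf, as were 0.023% of all, and 0 of 41 had an unadjusted p under 0.05 (5.54% of all). The arrays did not overlap in 6 members (14.6%), close to the 13.9% of all probe sets. Lower in XmO were Idh3g, Dld, the lipoamide dehydrogenase shared by the mitochondrial dehydrogenase complexes, a set of the neuronal glucose carrier Slc2a3 (92292_at) and a dim set of Sucla2. Higher in XmO were the muscle-type enolase Eno3 and the 5′ set of Gapdh. Dld was at 1371, 1200 and 1400 in XmO against 1591, 1570 and 1450 in XX_Paf, an estimate of -0.22 (SE 0.13). Its E2 partner Dlat had estimates of 0.12 and -0.16 at its probe sets, and its partners Pdhb and Ogdh had -0.03 and 0.08. Albumin (Alb), a liver marker, had an estimate of -2.98 between XmO and XX_Paf (SE 0.70, limma adjusted p = 0.52), and its part in this comparison was not tested.

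The smallest p in that comparison belonged to the dim Sucla2 set. Sucla2 is the ATP-forming beta subunit of succinyl-CoA synthetase. The set (93502_r_at) was at 106, 96.6 and 86.3 in XmO and 150, 142 and 154 in XX_Paf, but at 134 and 139 in XpO and 60.9 and 134 in XX_InX. XmO lay below XX_Paf and XpO above XX_InX, XpO 15 only narrowly, with an estimate of -0.63 (SE 0.31, limma adjusted p = 0.887) in the Paf cross and 0.60 (SE 0.38, adjusted p = 1.0) in the In(X) cross. On 2 arrays it did not exceed the brightest Y-linked set. The brighter Sucla2 set (93501_f_at), at 1225 to 1623, had estimates of 0.03 and -0.03, and its partner subunit Suclg1 had 0.03 and 0.05.

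Within the In(X) cross, 0 of 41 members were called between XpO and XX_InX, as were 0.0115% of all, and 0 of 41 had an unadjusted p under 0.05 (3.37% of all). The 4 arrays did not overlap in 9 members (22.0%), against 23.4% of all. Higher in XpO were Pdha1, Ogdh, which opens the step from 2-oxoglutarate, the bright Pkm set, the Pfkp set 97834_g_at and the dim Sucla2 set. Lower in XpO were the cytosolic malate dehydrogenase Mdh1, a Slc2a3 set (93804_at) and the 3′ and middle sets of Gapdh. The smallest p was that of Pfkp, at 1417 and 1141 in XpO and 1035 and 898 in XX_InX (0.40, SE 0.19, limma adjusted p = 1.0). In the Paf cross the same set had -0.21 (SE 0.15), with overlapping arrays. The difference between crosses in the effect of a single X had an unadjusted p under 0.05 for 2 of 41 members (4.88%, against 5.91% of all), this Pfkp set (-0.61, SE 0.24) and the dim Sucla2 set (-1.23, SE 0.49). Neither passed in limma (adjusted p = 0.832 for each), 0 of 41 members were called, and 0.023% of all probe sets were. Arrays that separated in opposite directions in the crosses were found in 1 of 41 members, the dim Sucla2 set (2.44%, against 2.02% of all). In the difference between the effects, the parental origin of the single X and the cross cannot be told apart.

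The crosses themselves were compared next, over XO and XX with equal weight. The clearest differences among the members were in phosphofructokinase and lactate dehydrogenase, though 0 of 41 probe sets were called, against 0.103% of all (9 probe sets). An unadjusted p under 0.05 was found for 7 of 41 (17.1%), against 12.8% of all. Estimates were higher in the Paf cross for 26 member probe sets and lower for 15, with a median of 0.05 against -0.01 for all probe sets. Of all 8697 probe sets, 4153 were higher and 4544 lower. Since 8 genes have several tested sets, the 41 are not separate observations. The cross, its parents and any handling of its litters cannot be told apart here. Among the XO arrays the parental origin of the single X goes with the cross as well.

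Phosphofructokinase commits fructose phosphate to glycolysis and is built from muscle (Pfkm), liver (Pfkl) and platelet (Pfkp) type subunits. The brighter Pfkp set over the arrays as a whole (97834_g_at) was at 1538, 1192 and 1291 in XmO, 1830, 1323 and 1516 in XX_Paf, 1417 and 1141 in XpO, and 1035 and 898 in XX_InX. The Paf cross was higher by 0.37 (SE 0.12, limma adjusted p = 0.245), with some overlap through XpO 15. Most of this came from the XX arrays, with 0.68 (SE 0.17) between the XX groups and 0.07 (SE 0.17) between the XO groups. The other set (97833_at) was at 1432, 1134 and 1351 in XmO, 1230, 1336 and 1356 in XX_Paf, 1128 and 995 in XpO, and 1032 and 796 in XX_InX. All 6 Paf-cross arrays were above all 4 In(X)-cross arrays in this set, by 0.41 (SE 0.11, interval 0.18 to 0.64, limma adjusted p = 0.174), the smallest p of any member. The estimate was 0.53 (SE 0.15) between the XX groups and 0.29 (SE 0.15) between the XO groups.

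Pfkm was at 1382, 1831 and 1760 in XmO, 2139, 1544 and 1934 in XX_Paf, 1231 and 1434 in XpO, and 1081 and 1420 in XX_InX. Of the Paf-cross arrays only XmO 1 was below the highest In(X)-cross array. The estimate was 0.45 (SE 0.13, interval 0.17 to 0.72, limma adjusted p = 0.202). Between the XX groups it was 0.58 (SE 0.18) and between the XO groups 0.31 (SE 0.18). The estimate for Pfkl had the other sign. Pfkl was at 1124, 1540 and 1132 in XmO, 913, 1514 and 1287 in XX_Paf, 1003 and 1465 in XpO, and 1526 and 1464 in XX_InX. Its arrays overlapped, and the estimate was -0.13 (SE 0.16, limma adjusted p = 0.759).

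Ldhb, the lactate dehydrogenase subunit of heart type that favours lactate use, was at 1046, 1091 and 1048 in XmO, 1681, 1056 and 1293 in XX_Paf, 948 and 898 in XpO, and 801 and 956 in XX_InX. Every Paf-cross array was above every In(X)-cross array. The estimate was 0.40 (SE 0.12, interval 0.13 to 0.67, limma adjusted p = 0.23). It was larger between the XX groups (0.59, SE 0.18) than between the XO groups (0.20, SE 0.18). Ldha, the muscle-type subunit that favours lactate production, was at 5107, 3843 and 4052 in XmO, 3796, 3950 and 4214 in XX_Paf, 4396 and 3497 in XpO, and 5075 and 3868 in XX_InX. Its groups overlapped throughout, with an estimate of -0.01 (SE 0.11).

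**Figure D4:**
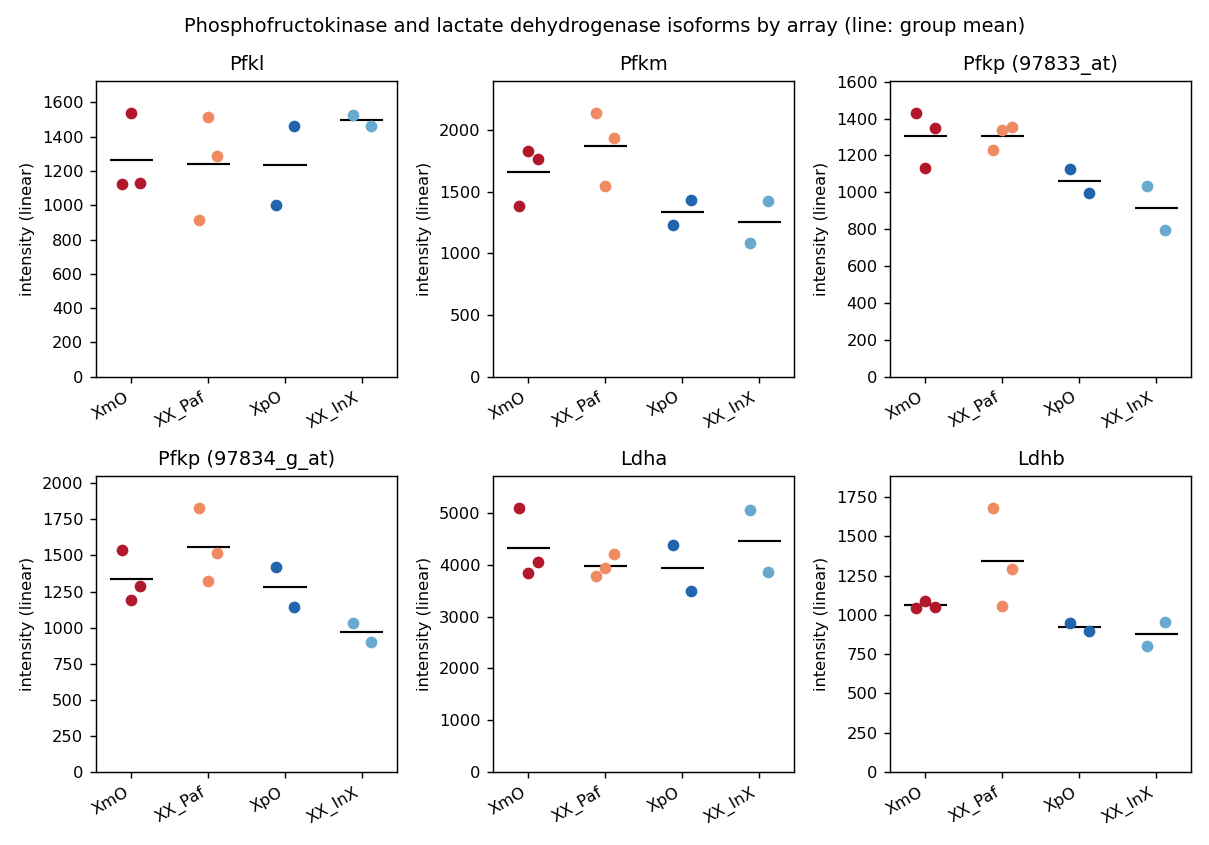
Each point is the linear intensity of 1 array and each line the mean of its group, for the phosphofructokinase genes Pfkl, Pfkm and Pfkp (both probe sets) and for Ldha and Ldhb, with the axes starting at 0. In Pfkp (97833_at) and Ldhb the 6 arrays of the Paf cross (red and orange) lie above the 4 of the In(X) cross (blue), and in Pfkl and Ldha they overlap.

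With Ldhb and Pfkp (97833_at), 2 of 41 members (4.88%) had no overlap between the crosses in the higher direction, against 1.56% of all. In the lower direction 1 member did (2.44%, against 1.51% of all), the middle set of Gapdh, the glyceraldehyde phosphate dehydrogenase. This set was at 18335, 18020 and 16228 in XmO, 17241, 17027 and 16697 in XX_Paf, 19043 and 19328 in XpO, and 19582 and 19663 in XX_InX. Its estimate was -0.17 (SE 0.06, limma adjusted p = 0.298), and those of the 3′ and 5′ sets were -0.12 each. After quantile normalization between the arrays the 3 estimates were -0.05, -0.01 and 0.05, so the direction of the 5′ set turned and most of the difference in the others went. Gapdh is measured here only by Affymetrix control sets.

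The remaining members with an unadjusted p under 0.05 between the crosses were Fh1, the fumarase, and a set of Aldoa, the main brain aldolase along with Aldoc. Fh1 was at 980 to 1301 in XmO, 1018 to 1055 in XX_Paf, 1178 and 1324 in XpO, and 1207 and 1458 in XX_InX (-0.25, SE 0.10, limma adjusted p = 0.366). Its groups overlapped through 1 XmO array. Aldoa (161889_f_at) had 0.21 (SE 0.09, limma adjusted p = 0.378), while its brighter set had -0.05 (SE 0.08). Of the 8 genes with more than 1 tested probe set, the sets had the same sign in 6 between the crosses and in 4 between XO and XX.

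**Figure D5:**
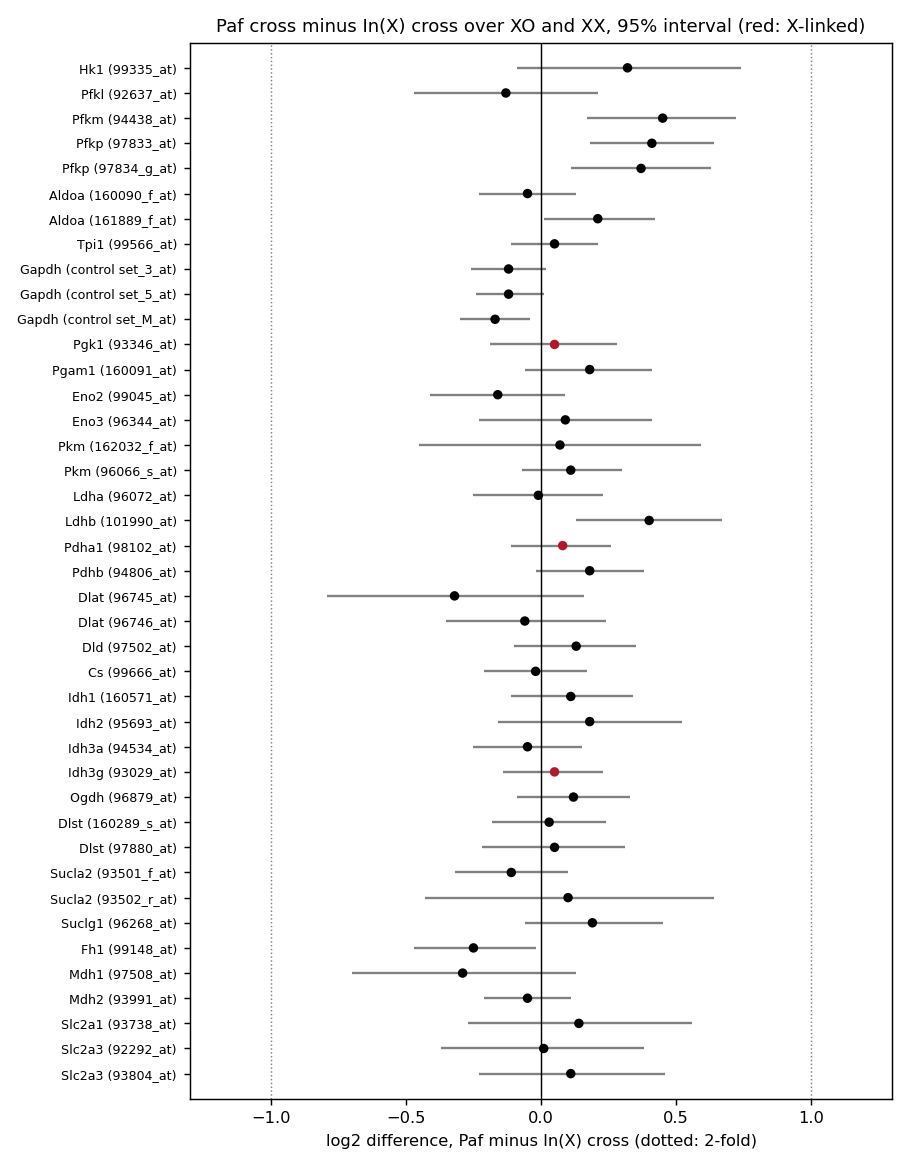
Points are the log2 difference between the Paf cross (XmO and XX_Paf) and the In(X) cross (XpO and XX_InX) for each of the 41 tested member probe sets, and bars are 95% intervals from limma; red marks the X-linked genes and dotted lines a 2-fold change. Pfkm (0.45), both Pfkp sets (0.41 and 0.37) and Ldhb (0.40) lie furthest to the right, none of them past the adjusted threshold.

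Of the 5 tested erythroid markers, 2 were called between the crosses, both globins, Hba-a1 (1.27, SE 0.16, limma adjusted p = 0.0104) and Hbb-b2 (1.34, SE 0.17, adjusted p = 0.0104). Alas2 (0.20, SE 0.26), Slc4a1 (0.09, SE 0.41) and Hbb-bh1 (-0.28, SE 0.29) did not pass. The summed intensity of the 5 was 11358 to 17367 in XmO and 11740 to 17040 in XX_Paf, against 6047 to 7516 in XpO and 4092 to 6268 in XX_InX. The 6 tested muscle markers summed to 920 to 1798 in XmO, 974 to 4168 in XX_Paf, 954 to 1342 in XpO and 977 to 1137 in XX_InX, with Acta1 at 2448 on XX_Paf 2 and 180 to 574 elsewhere. The 2 tested liver or gut markers, Alb and Afp, summed to 142 to 225 in XmO, 337 to 1321 in XX_Paf, 94.5 to 266 in XpO and 147 to 247 in XX_InX. Alb was at 1280, 555 and 245 in XX_Paf and at most 114 elsewhere, whereas Afp was at 41.6, 78.5 and 91.8 in XX_Paf and 71.1 to 152 elsewhere. Afp was dim, and below the brightest Y-linked set on XX_Paf 1 (60.3), XX_Paf 2 (81.6), XmO 7 (136.6) and XX_InX 1 (102.9). The muscle marker Ckm was at 22.3 on XmO 1, below the brightest Y-linked set of that array (67.7), and at 111 to 260 elsewhere. Of the 6 tested markers of radial glia and astrocytes, 2 were higher and 4 lower in the Paf cross. Among these 6, 1 had an unadjusted p under 0.05 (12.8% of all probe sets), the dim Vim (-0.90, SE 0.35, limma adjusted p = 0.326). Of the 7 neuronal and 5 endothelial markers tested, none had such a p between the crosses. The part of blood, muscle, liver, glial and other cells in the differences between the crosses was not tested. In RNA of a whole tissue, fewer cells of a type and less RNA per cell cannot be told apart.

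The XX females of the crosses, whose arrays enter the comparison above, were also compared alone. Between XX_Paf and XX_InX 0 of 41 members were called, against 0.0805% of all, and 8 of 41 had an unadjusted p under 0.05 (19.5%, against 13.8% of all). These were Pfkm, both Pfkp sets, Ldhb, Mdh1, Fh1 and the 3′ and middle sets of Gapdh. The smallest p was that of Pfkp (97834_g_at), 0.68 (SE 0.17, limma adjusted p = 0.183). The arrays did not overlap in 15 members higher in XX_Paf (36.6%, against 17.6% of all) and in 7 lower ones (17.1%, against 19.6%). Mdh1, which carries reducing equivalents between cytosol and mitochondrion, was at 202, 316 and 255 in XX_Paf and 420 and 395 in XX_InX, with an estimate of -0.69 (SE 0.27, limma adjusted p = 0.303). It was at 250, 370 and 427 in XmO and 252 and 392 in XpO, which overlapped. Its mitochondrial counterpart Mdh2 differed between the XX groups by -0.06 (SE 0.10).

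The brains with a single maternal or paternal X also share their arrays with the comparison of the crosses. XmO and XpO come from different crosses, so the parental origin of the X and the cross cannot be told apart between them. Between XmO and XpO 0 of 41 members were called (0.0115% of all) and 0 of 41 had an unadjusted p under 0.05 (4.86% of all). The arrays did not overlap in 9 members (22.0%, against 17.4% of all). Higher in XmO were Pfkp (97833_at), Ldhb, Aldoa (161889_f_at), Dlst (160289_s_at), the E2 subunit of the oxoglutarate dehydrogenase complex, and Slc2a1, the glucose carrier of the blood-brain barrier and glia. Lower in XmO were Mdh2, the dim Sucla2 set and the 5′ and middle sets of Gapdh. The smallest p was that of Pfkp (97833_at), with an estimate of 0.29 (SE 0.15, limma adjusted p = 0.969).

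Isoforms of a step were compared as the log2 ratio of their intensities on each array, of which only differences between groups are read, since the level of a ratio depends on the probes. Of 12 listed pairs, 8 had both genes tested, and none passed between XO and XX (exact permutation within crosses, 120 arrangements, smallest p they allow 0.0167; adjusted p of at least 0.819). The largest differences were those of the enolases Eno2 and Eno3 (-0.28, exact p = 0.25) and of the glucose carriers Slc2a1 and Slc2a3 (0.27, exact p = 0.283). None passed between the crosses either (100 arrangements, smallest p they allow 0.01). A single pair at the smallest exact p would have an adjusted p of 0.133 between XO and XX and 0.08 between the crosses, so 1 pair alone could not pass in this design.

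Eno2, the neuronal enolase, was at 1104, 836 and 752 in XmO, 1003, 942 and 1030 in XX_Paf, 1088 and 1000 in XpO, and 1126 and 976 in XX_InX. Eno3 was at 323, 345 and 325 in XmO, 300, 312 and 252 in XX_Paf, 249 and 383 in XpO, and 253 and 292 in XX_InX. The XmO arrays of Eno3 were above the XX_Paf arrays, while XpO and XX_InX overlapped, and the XO and XX arrays of Eno2 overlapped in both crosses. Slc2a1 was at 255, 333 and 309 in XmO, 351, 239 and 199 in XX_Paf, 242 on both XpO arrays, and 204 and 323 in XX_InX. The Slc2a3 set of the ratio (93804_at) was at 239, 316 and 371 in XmO, 295, 401 and 330 in XX_Paf, 300 and 246 in XpO, and 304 and 345 in XX_InX. Both XpO arrays of this set were below both XX_InX arrays, XpO 15 only narrowly. The other set (92292_at) was at 279, 281 and 220 in XmO, 330, 371 and 346 in XX_Paf, 232 and 426 in XpO, and 291 and 277 in XX_InX. Here XmO was below XX_Paf and the In(X)-cross groups overlapped.

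The pair with the smallest p between the crosses was Pfkl over Pfkm. Its log2 ratio was -0.30, -0.25 and -0.64 in XmO, -1.23, -0.03 and -0.59 in XX_Paf, -0.30 and 0.03 in XpO, and 0.50 and 0.04 in XX_InX. The Paf cross was lower in this ratio by -0.57, with overlap through XpO 15 (exact permutation p = 0.05, adjusted over the 8 pairs p = 0.4). Ldha over Ldhb differed by -0.41 (exact p = 0.11, adjusted p = 0.44) and Pfkl over Pfkp by -0.50 (exact p = 0.21, adjusted p = 0.44). Pfkm over Pfkp, both of which had higher estimates in the Paf cross, differed by 0.07 (exact p = 0.73). The cytosolic and mitochondrial pairs Idh1 over Idh2 and Mdh1 over Mdh2 differed by -0.07 and -0.23 (exact p = 0.72 and 0.45). Idh1 was at 2522, 2504 and 2531 in XmO, 3005, 2686 and 2254 in XX_Paf, 2986 and 2238 in XpO, and 2319 and 2072 in XX_InX. Idh2 was at 849, 636 and 447 in XmO, 698, 752 and 684 in XX_Paf, 655 and 598 in XpO, and 602 and 499 in XX_InX. Mdh2 was at 5898, 5904 and 5913 in XmO, 6616, 5540 and 5560 in XX_Paf, 6289 and 5920 in XpO, and 6020 and 6219 in XX_InX. The XO and XX arrays of Idh1, Idh2 and Mdh2 overlapped in both crosses. In Mdh1 both XpO arrays were below both XX_InX arrays, XpO 18 only narrowly.

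The spread within groups set what could be seen. The pooled SD within groups had a median of 0.18 log2 units over the 41 members and 0.23 over all probe sets. It was low for Gapdh (0.04 at the 5′ set), Tpi1, the triose phosphate isomerase (0.07), Mdh2 (0.09) and Idh3a (0.09). Tpi1 ran from 3268 to 4011 over all 10 arrays and Cs, the citrate synthase that starts the cycle, from 2331 to 3006. In Tpi1 and Cs the highest array was at most 1.29-fold above the lowest.

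Hk1, which traps glucose in the cell as its phosphate, had a wide spread. It was at 7695, 4823 and 6977 in XmO, 8216, 8171 and 6912 in XX_Paf, 7856 and 3858 in XpO, and 7061 and 4660 in XX_InX. A low array stood in 3 of the 4 groups, XmO 2, XpO 18 and XX_InX 19, and the pooled SD was 0.41. Its difference between XO and XX was -0.17 (SE 0.19) and between the crosses 0.32 (SE 0.19, limma adjusted p = 0.5). Pgam1, Idh3a, Tpi1, Cs, Ogdh, Dlst, Dlat, Pdhb and Suclg1 had estimates within 0.15 of 0 between XO and XX and within 0.32 between the crosses, with adjusted p of at least 0.442 in those comparisons.

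Other genes of the same metabolism were counted in lists. None was called between XO and XX or between the crosses in the pentose phosphate pathway (6 tested of 7 listed), control of pyruvate dehydrogenase and of phosphofructokinase through Pfkfb enzymes (5 of 13), the other isoforms and cycle enzymes (11 of 19), lactate and ketone body use (2 of 9), gluconeogenesis and glycogen (9 of 15), the shuttles (7 of 12) or the hypoxia response (9 of 13). Between XO and XX 1 of the 11 other isoforms and cycle enzymes had an unadjusted p under 0.05 (2.6% of all probe sets). This was Pklr, the pyruvate kinase of liver and red cells (-1.15, SE 0.38, limma adjusted p = 1.0). Pklr was dim and its Paf-cross arrays overlapped, at 334, 79.7 and 78.2 in XmO and 260, 137 and 257 in XX_Paf. It was at 120 and 87.8 in XpO and 336 and 287 in XX_InX. On XmO 7 it was below the brightest Y-linked set (136.6). An unadjusted p under 0.05 between XO and XX was also found for 1 of the 9 hypoxia genes. That gene was Vhl, which marks hypoxia-inducible factors for breakdown (0.32, SE 0.14, adjusted p = 1.0). The Vhl estimate was -0.23 (SE 0.18) in the Paf cross and 0.88 (SE 0.22) in the In(X) cross, a difference of -1.11 (SE 0.29, limma adjusted p = 0.83). Between the crosses 3 of the 9 hypoxia genes had an unadjusted p under 0.05, as did 12.8% of all probe sets. These were Hif1a (0.21, SE 0.08, limma adjusted p = 0.304), Vegfa (-0.70, SE 0.3, adjusted p = 0.363) and Vhl (0.35, SE 0.14, adjusted p = 0.355). Vegfa was dim, at 50.4 to 230 over the arrays. In these lists the nearest to a call in those comparisons was Sdhb, the iron-sulfur subunit of succinate dehydrogenase. Sdhb was at 2356, 2621 and 2641 in XmO, 2500, 2018 and 2075 in XX_Paf, 2970 and 3121 in XpO, and 3190 and 3319 in XX_InX. All arrays of the Paf cross were below all of the In(X) cross, by -0.42 (SE 0.09, limma adjusted p = 0.0948). Its membrane partners Sdhc and Sdhd had -0.20 (SE 0.08) and -0.09 (SE 0.12), and the flavoprotein Sdha had 0.25 (SE 0.15).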

How the data were processed

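The deposited table holds 1 linear intensity per probe set and array, scaled by the authors so that every array's mean, after trimming 2% at each end, is 500.3. The summary algorithm is not given in the sources used here, and no scan dates, detection calls or counts were used, so the number of arrays limits the precision. Groups came from the labels.

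Intensities under the 10th percentile (15) were raised to it and taken to log2. Probe sets with a mean log2 of at least 6.094 (the 30th percentile; an intensity of 68.3) were tested, 8697 of 12425. The 66 control sets were left out, except 3 sense sets of Gapdh. The platform annotation gave 1 symbol to 10833 probe sets, several to 396 and none to 1193; those with several, 2 shared by Gapdh and pseudogenes among them, name no member. limma 3.58.1 in R 4.3.3 fitted 1 mean per group (lmFit, eBayes with trend, 6 residual degrees of freedom; two-sided, Benjamini-Hochberg within each of 7 contrasts). In simulated data of 8697 probe sets, where 200 were given a log2 change of 1, 83% of those were recovered for XO against XX and 83.5% between crosses. The simulated noise was independent between probe sets, and comparisons within 1 cross were not simulated. Member estimates in those 2 contrasts were at most 0.45, so the rates do not give the sensitivity for changes of that size.

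The members and lists were chosen with earlier results of these data known. Arrays are given for Pdha1 and Pgk1, for the smallest p of each contrast, for members whose arrays separate over all groups and for isoforms compared. Idh3g, Dld, Mdh1, Hk1, Fh1 and the examples of stable genes were chosen after their values were seen. Arrays of equal replicate number in different groups showed little shared deviation, which cannot exclude a pairing of the samples. The alternatives were quantile normalization, no floor, other filters, no trend, a block on replicate number and leaving out each array. The mean over a gene's probe sets was an alternative for the isoform ratios only.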

Additional observations from a re-analysis of the deposited data

Results flagged for a closer look

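The dim Sucla2 probe set (93502_r_at) stood out because the effect of a single X pointed in opposite directions in the crosses, with no overlap between XO and XX arrays in either. XmO was below XX_Paf on 3 of 3 arrays and XpO above XX_InX on 2 of 2. The difference between the effects was -1.23 (SE 0.49, limma adjusted p = 0.832), so it did not pass, and leaving out 1 array at a time moved it between -1.79 and -0.66. The brighter Sucla2 set had a difference of 0.06 (SE 0.19). Groups separate in this opposite way in 2.02% of all probe sets. On 2 arrays the dim set did not exceed the brightest Y-linked set, and the part of background in the result was not tested.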

How the results depend on the processing

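No member was called in any of the 7 contrasts under quantile normalization, no floor, no filter, a filter at the 50th percentile, no trend, or without any 1 array. The smallest adjusted p of a member over these was 0.0809, for Pfkp between the crosses without XpO replicate 15. Quantile normalization turned Gapdh (5′ set) between the crosses to 0.05, and the cause was not tested.

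Arrays of equal replicate number showed little shared deviation from their group means (correlations -0.012 for XmO 1 and XX_Paf 1, -0.042 for XmO 2 and XX_Paf 2, 0.032 for XmO 1 and XX_InX 1, -0.121 for XX_Paf 1 and XX_InX 1). With so few arrays in a group, these values cannot exclude a pairing of the samples. With the replicate block 0 members were called in each contrast, and the calls over all probe sets were again 1, 2, 1, 9, 1, 7 and 2.

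Leaving out 1 array turned some small estimates that had not passed. Between XO and XX, Pgk1 lay between -0.23 and 0.04 and Pkm (162032_f_at) between -0.18 and 0.18, and the effect difference of Sucla2 (93501_f_at) between -0.07 and 0.18. Among ratios between XO and XX, Pfkl over Pfkm lay between -0.24 and 0.06, Pfkm over Pfkp between -0.28 and 0.02, Ldha over Ldhb between -0.08 and 0.25, Idh1 over Idh2 between -0.03 and 0.20, and Mdh1 over Mdh2 between -0.16 and 0.21. Between the crosses, Pfkm over Pfkp lay between -0.08 and 0.22, Idh1 over Idh2 between -0.19 and 0.04, and Slc2a1 over Slc2a3 between -0.13 and 0.15. Pfkm kept 0.35 to 0.54, Pfkp (97833_at) 0.32 to 0.50 and Ldhb 0.31 to 0.48.

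The background counts moved more than the members' did. Between the crosses the 9 calls became 22 with the 50th percentile filter, 6 with no filter and 1 with no trend, and 105 without XpO 15, 15 without XmO 1, 5 without XX_Paf 1 and 1 without XpO 18. Between XX_Paf and XX_InX the 7 became 17 with no filter, 13 with the 50th percentile filter and 2 with no trend, and 2 to 17 without 1 array (17 without XX_InX 19, 12 without XmO 2, and 2 without any 1 XX_Paf array). With no filter, there were 5 for XO against XX, 7 in the In(X) cross, 4 in the Paf cross, 3 between the XO groups and 5 for the effect difference. The effect difference gave 1 with the 50th percentile filter, 0 with no trend, and 0 to 4 without 1 array. Without 1 array there were 1 to 3 for XO against XX, 1 to 4 in the In(X) cross, 2 to 4 in the Paf cross and 1 to 7 between the XO groups. Members with an unadjusted p under 0.05 also moved. For XO against XX the 0 became 4 without XpO 15 (7.54% of all probe sets) and 2 without XpO 18 (3.64%). In the Paf cross it became 4 without XmO 1 (6.88%) and 2 without XX_Paf 2 (4.51%), and in the In(X) cross 3 without XpO 15 (5.76%) and 2 without XpO 18 (8.72%). Between the XO groups it became 3 without XmO 1 (6.12%) or XpO 15 (10.7%). Over all arrays left out in turn there were 5 to 10 between the crosses, where 7.92% to 21.6% of all probe sets had such a p. Between the XX groups there were 3 to 8 (7.42% to 17.0% of all), and for the effect difference 1 to 4 (3.97% to 13.4%). The share over all probe sets thus moved as well.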
